A study of Homo sapiens with 6 samples.

Results

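Ribosomal proteins are the protein components of the cytosolic ribosome, which translates messenger RNA. A small subunit decodes the message, a large subunit joins the amino acids, and a flexible stalk of acidic P proteins on the large subunit recruits the translation factors that use GTP. Their messengers are short and abundant in dividing cells. They typically begin with a cytosine and a run of pyrimidines, the terminal oligopyrimidine (TOP) tract, through which the kinase complex mTORC1 and the RNA-binding protein LARP1 control their translation.

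The genes described here were chosen by a rule on symbol and annotation that uses no values, though with earlier results of these data known. They are the protein-coding genes of GENCODE 29 whose symbol begins RPL or RPS with a digit or a P protein number, together with RPSA. RPS6K kinase genes, RPS27L, RPS4Y genes and hyphenated names were left out. This gave 85 of the 58735 gene rows in the table. By subunit there were 43 genes of the large subunit, 31 of the small subunit and 3 stalk genes, a core set of 77. The symbols also took in 7 paralog genes of restricted or partly overlapping function, and RPS19BP1, whose product binds the ribosomal protein RPS19 and is not itself a ribosomal protein. FAU and RACK1, also parts of the ribosome, lie outside the symbol rule and are described with the wider pathway.

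The series compared HCT116 cells that overexpressed SETD8 with HCT116 cells that carried an empty vector, each with 3 libraries of poly(A)-selected RNA. HCT116 is an established human colorectal carcinoma line, and SETD8 is a lysine methyltransferase that monomethylates histone H4, now named KMT5A. The label for genotype reads SETD8 overexpression in the first group and WT in the second. Both groups passed through lentiviral transduction and puromycin selection of stable clones per the labels' protocols, while the series' design text speaks of transfection, and the number of clones behind a library is not stated in the labels. The labels do not say that replicates were separate cultures, and p-values therefore cover only the variation among these libraries, possibly technical.

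Libraries held 17056672 to 18785454 counts in the SETD8 group and 17187722 to 20471843 in the vector group. Values below are CPM, the count scaled to library size and composition, and a log2 ratio is the fitted log2 fold change of SETD8 over vector. Here 3 counts in a library correspond to 0.15 to 0.17 CPM. KMT5A averaged 69.0 CPM in SETD8 libraries and 49.1 CPM in vector libraries (log2 ratio 0.49 with SE 0.10, adjusted p = 0.0156 by edgeR). All 6 epithelial markers checked were present, with a summed level of 11545 to 12989 CPM in SETD8 libraries and 10931 to 13520 CPM in vector libraries. Most of this sum was KRT8, KRT18 and KRT19. In the same list CLDN7 rose and CDH1 fell, at 298 and 80.7 CPM in SETD8 libraries and 220 and 117 CPM in vector libraries, and the part of this in the results below was not tested. The 6 fibroblast and 6 immune markers summed to 3.50 to 4.83 and 0.35 to 0.48 CPM in SETD8 libraries and to 4.80 to 7.20 and 0.29 to 1.05 CPM in vector libraries, and COL1A2, DCN, PTPRC and CD3E were at 0 in all libraries.

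Start sites are shown for the genes that passed the test described below, apart from RPS19BP1, and for RPS6 and RPS12, which did not pass. The pyrimidine run that marks this gene family can thus be compared between them. RefSeq start sequences on GRCh38.p14 were matched for 67 of the 85 genes. Each line gives the 30 bases before the annotated start and the 20 bases from it, 5′ to 3′ on the gene's strand. Capitals mark the longest run of C and T bases among those that reach the bases close around the start. Runs that end further upstream are left unmarked, also where they are longer.
RPS28: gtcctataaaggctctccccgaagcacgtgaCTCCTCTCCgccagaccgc
RPLP2: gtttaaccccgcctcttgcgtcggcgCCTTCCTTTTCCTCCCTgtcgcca
RPS27: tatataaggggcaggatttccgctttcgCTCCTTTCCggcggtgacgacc
RPL26: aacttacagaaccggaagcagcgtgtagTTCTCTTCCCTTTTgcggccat
RPL36AL: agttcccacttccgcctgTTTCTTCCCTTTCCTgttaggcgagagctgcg
RPS29: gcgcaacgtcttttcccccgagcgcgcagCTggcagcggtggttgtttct
RPS6: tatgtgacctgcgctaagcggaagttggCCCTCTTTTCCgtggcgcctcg
RPS12: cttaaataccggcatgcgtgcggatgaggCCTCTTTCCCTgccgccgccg

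These windows lie at chr19:8321466-8321515 for RPS28 and chr11:809937-809986 for RPLP2. Those of RPS27 and RPL26 lie at chr1:153990732-153990781 and chr17:8383174-8383223. Those of RPL36AL and RPS29 lie at chr14:49620607-49620656 and chr14:49598691-49598740, and those of RPS6 and RPS12 at chr9:19380217-19380266 and chr6:132814539-132814588. RPL26, RPL36AL, RPS29 and RPS6 are on the minus strand and the others on the plus strand. The run spans 17 bases in RPLP2, 15 in RPL36AL, 14 in RPL26, 11 in RPS6 and RPS12, and 9 in RPS28 and RPS27. RPS29 had a marked run of 2 bases at its annotated RefSeq start, and its line also holds a longer, unmarked run that ends further upstream. RPLP2, RPS27, RPL26, RPS6 and RPS12 met the definition of a pyrimidine start given next, while RPS28, RPL36AL and RPS29 did not. The annotated start of RPS28 is an A, and its run of 9 bases begins at base 2, directly after it.

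A start at a C followed by at least 4 further C or T bases was found in 47 of the 67 matched genes, or 70.1%, against 5.14% of all 27305 genes with a start in the same table. A gene counted if any of its annotated starts had this feature. The letters GGAAG (or CTTCC on the other strand), the core of ETS family sites, were in the window of 300 bases in 94.0% of the matched genes and in 75.4% of all genes. CTTCC can overlap the pyrimidine run. The letters ATGGC (or GCCAT), the core of YY1 sites, were in 58.2% and 43.1%, and TATAAA (or TTTATA) in 7 of the 67 matched genes and 3819 of all 27305. Such matches describe the letters and not binding.

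The levels of the genes spanned a wide range, and among the tested genes the lowest 6 were genes that share coding bases with another gene. Per kilobase of transcript (the median length of the gene's basic transcripts), the highest was RPS2, a small subunit protein at the entry of the messenger channel, with 5858 ± 336 CPM per kb in SETD8 libraries and 5668 ± 1131 CPM per kb in vector libraries (SD, n = 3 each). RPLP0, the stalk base, followed at 4842 ± 441 and 4722 ± 919 CPM per kb in SETD8 and vector libraries. RPS18 had 3749 ± 122 CPM per kb in SETD8 and 3425 ± 418 in vector libraries. RPL13A (3215 ± 205 and 3066 ± 450), RPL8 (3255 ± 97.3 and 2974 ± 563) and RPLP1 (3402 ± 106 and 2742 ± 529 CPM per kb) came next. In vector libraries these last levels lay within each other's spread. The 70 core genes without such sharing had mean levels of 122 to 5763 CPM per kb over the 6 libraries, with a median of 1308.

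In 7 core genes, between 36.9% and 98.2% of the coding bases are also exons of another protein-coding gene on the same strand in GENCODE 29. In the other members at most 9.5% of the coding bases are shared with any gene on the same strand. These 7 genes took 7 of the 8 lowest places among the tested members, at 0.94 to 82.4 CPM per kb. RPS10 had 0.53, 0.10 and 0.23 CPM in SETD8 replicates 1, 2 and 3, against 0.87, 0.75 and 1.15 CPM in vector replicates 1, 2 and 3. RPL36A averaged 1.02 ± 0.26 CPM in SETD8 and 1.14 ± 0.37 CPM in vector libraries (SD, n = 3 each). The overlapping readthrough genes RPS10-NUDT3, RPL36A-HNRNPH2 and RPL17-C18orf32, named after their values were seen, had 0 counts in every library. RPL17, with 98.2% of its coding bases shared, averaged 21.4 ± 1.87 CPM in SETD8 and 17.4 ± 3.36 CPM in vector libraries. RPL22, at 87.9 CPM in SETD8 and 81.3 CPM in vector libraries, and RPL26 belong to the same set, as does RPS15A, named after its value was seen. The labels do not say how the counting treated reads in shared bases, and whether such reads were left out was not tested.

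**Figure D1:**
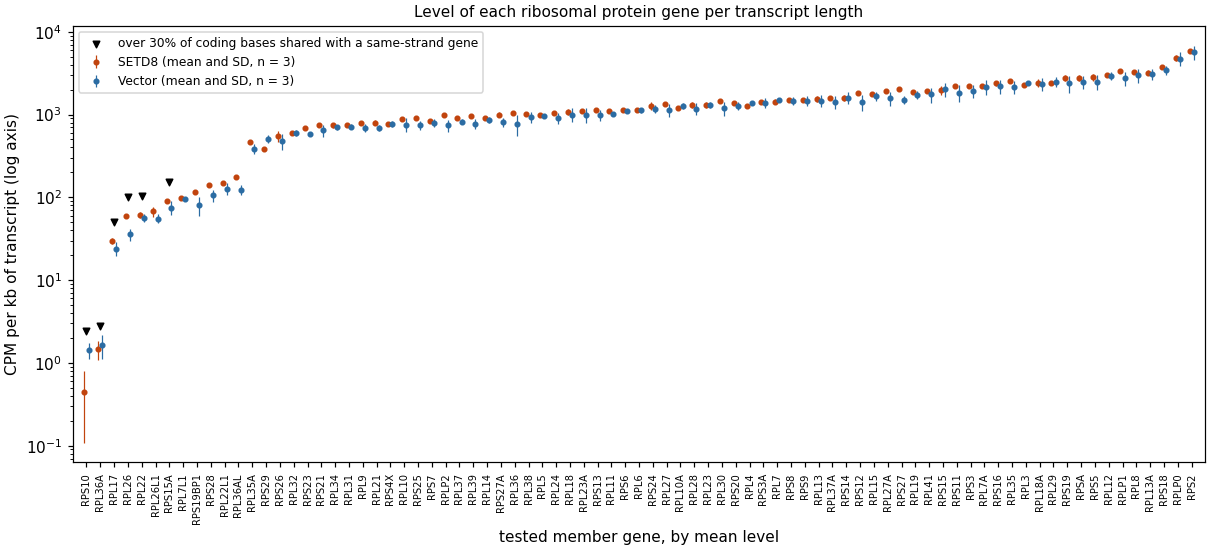
Mean level of 81 of the 82 tested genes in CPM per kb of transcript on a log axis, with SETD8 libraries in rust red and vector libraries in blue (error bars SD, n = 3 each); triangles mark the 6 genes drawn that share over 30% of their coding bases with a gene on the same strand. RPS10 and RPL36A lie at about 1 CPM per kb and RPS2 at the top, and the marked genes lie at the low end.

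Processed pseudogenes, retrocopies of these messengers, form the other group of near-identical rows. By name, 1600 pseudogene rows belong to 78 of the 85 genes. They held 0.516% ± 0.021 of the counts in SETD8 libraries and 0.488% ± 0.071 in vector libraries (SD, n = 3 each), against 9.61% ± 0.34 and 8.70% ± 1.03 in the genes themselves. Of the 1600 rows, 428 had a count and 100 were tested. Of these 100, 1 rose and 1 fell, against 3.08% and 4.75% of all genes tested. The pseudogene rows named here were chosen after their values were seen. RPS2P5 on chromosome 12 (118246084 to 118246962) had 1342, 1264 and 1406 CPM in SETD8 replicates 1, 2 and 3 and 1533, 1359 and 1014 CPM in vector replicates 1, 2 and 3. For 19 of the 85 genes, over 50% of the 50-base stretches of the transcript model were also in a transcript of another gene.

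The pseudogene rows of RPS28 held more counts than the gene, as did those of RPL36A, RPS10 and RPL17. Those of RPS28 took 73.2% of the summed counts of gene and pseudogenes in SETD8 libraries and 76.5% in vector libraries. Nearly all of these counts were in RPS28P7 on chromosome 11 (82689559 to 82689768), with 505, 490 and 516 CPM in SETD8 replicates 1, 2 and 3, against 574, 519 and 264 CPM in vector replicates 1, 2 and 3. The groups overlapped, and vector replicate 3 was low (log2 ratio 0.15 with SE 0.25, adjusted p = 0.738 by edgeR). For RPL26 the share on pseudogene rows was 37.2% in SETD8 and 51.4% in vector libraries, for RPL17 78.9% and 81.9%, for RPS10 97.2% and 89.3%, and for RPL36A 99.3% and 99.1%.

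With SETD8 overexpression, 6 of the 82 tested genes rose and 1 fell (edgeR, threshold 0.05 on p adjusted by Benjamini-Hochberg over all 14370 genes tested). The genes that rose were RPL26, RPL36AL, RPS19BP1, RPS27, RPLP2 and RPS28, and RPS29 fell. Of all genes tested, 3.08% rose and 4.75% fell, or 7.83% in either direction, while of the members 7.32% rose and 1.22% fell. All 3 SETD8 libraries lay above all 3 vector libraries in 22 of the members, or 26.8%, against 14.4% of all genes tested. They lay below in 3 members, against 15.9% of all genes tested. The median log2 fold change of the members was 0.13 and that of all genes tested 0.0005, and 71 members had a positive value and 11 a negative one. In bulk RNA, fewer cells of a kind and less RNA per cell cannot be told apart. The counts changed with single libraries. Without vector replicate 1, 26 members rose. Without vector replicate 2, or SETD8 replicate 2 or 3, RPL26 alone rose, and without SETD8 replicate 1 the count was 0.

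Over all genes tested, 12.0% rose and 11.8% fell without vector replicate 1, 0.17% and 0.32% without vector replicate 2, and 3.06% and 4.38% without vector replicate 3. These shares were 0.00679% and 0.0679% without SETD8 replicate 1, 0.306% and 0.749% without SETD8 replicate 2, and 0.305% and 0.568% without SETD8 replicate 3. With scaling by library totals, 11 of 82 members rose and 1 fell, against 5.51% and 3.51% of all genes tested. With no low-count filter, 14 of 84 rose and 1 fell, against 3.46% and 3.83% of all genes tested. With DESeq2, 12 of 82 rose and 1 fell, against 5.14% and 6.31% of all genes tested. With correction for transcript length, 4 of 82 rose and 3 fell, against 3.97% and 5.2% of all genes tested. Summing members with their pseudogene rows gave 5 rises and 1 fall, against 3.16% and 4.81% of all genes tested.

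**Figure D2:**
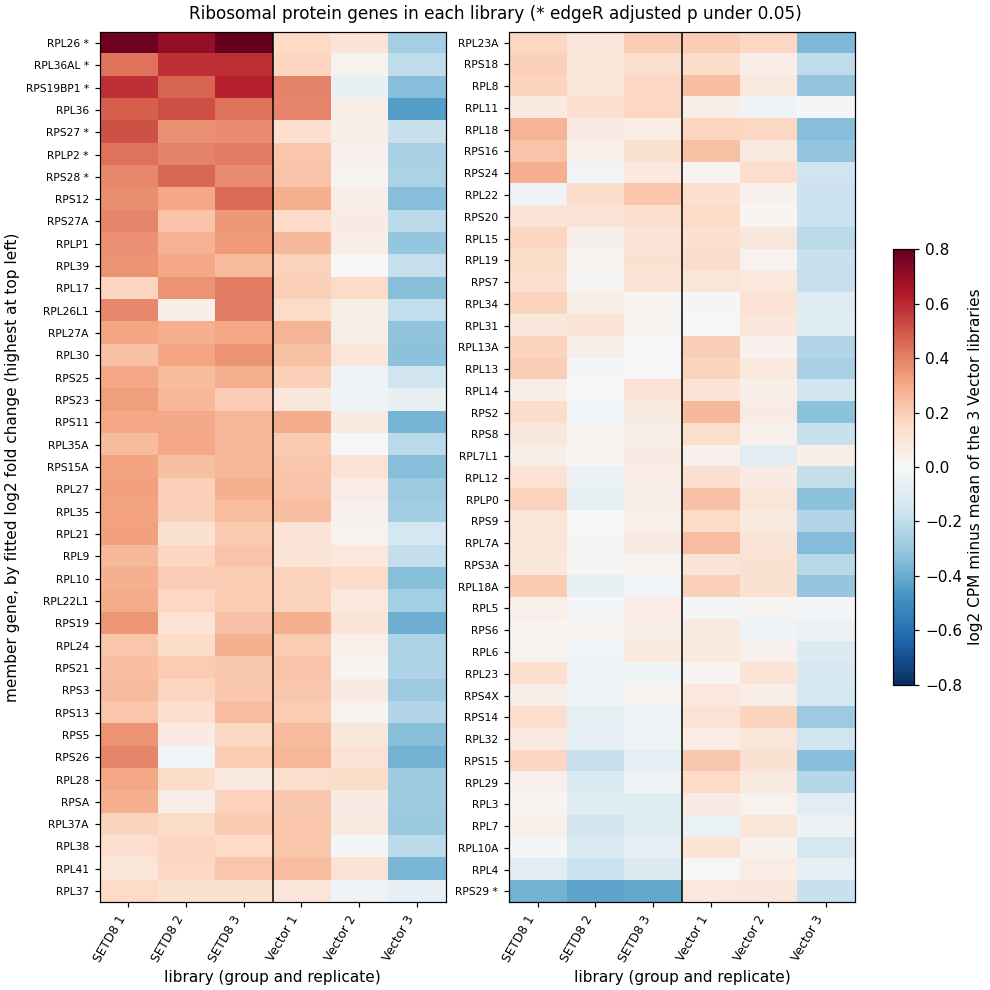
Log2 CPM of 79 tested genes in each library relative to the mean of the 3 vector libraries (colour scale; SETD8 libraries left, vector libraries right of the line), ordered by fitted fold change, with 3 of the 82 tested genes not drawn, RPS10 and RPL36A among them for their low counts. Asterisks mark the 7 genes past the threshold; the column of vector replicate 3 is blue in most rows.

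RPL26, a large subunit protein at the exit of the peptide tunnel, rose most. It lies on chromosome 17 from 8377516 to 8383250 (ENSG00000161970). SETD8 replicates 1, 2 and 3 had 40.8, 38.8 and 42.0 CPM and vector replicates 1, 2 and 3 had 26.7, 25.7 and 19.7 CPM. The groups did not overlap, and the log2 fold change was 0.75 (SE 0.12, edgeR adjusted p = 0.00699). RPL26 shares 60.7% of its coding bases with an overlapping gene. Summed with its pseudogene rows it rose by a log2 fold change of 0.38 (edgeR adjusted p = 0.0300), and RPL36AL then had the highest value among the members, at 0.53. The pseudogene row RPL26P19, named after its value was seen, had a log2 fold change of -0.13 (edgeR adjusted p = 0.605).

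RPL36AL, a retrogene paralog of RPL36A that encodes a nearly identical large subunit protein, rose as well. It lies on chromosome 14 from 49618519 to 49620685. It had 123, 137 and 137 CPM in SETD8 replicates 1, 2 and 3, against 103, 93.1 and 79.2 CPM in vector replicates 1, 2 and 3, with no overlap (log2 ratio 0.53 with SE 0.10, adjusted p = 0.0124 by edgeR). RPL36AL had 14.3% of its 50-base stretches in other genes, against 80.3% for RPL36A, which did not pass (log2 ratio -0.16 with SE 0.40, adjusted p = 0.835 by edgeR). RPS19BP1, also known as an activator of the deacetylase SIRT1, had 109, 101 and 112 CPM in SETD8 replicates and 96.0, 70.1 and 57.6 CPM in vector replicates (log2 ratio 0.53 with SE 0.15, adjusted p = 0.0487 by edgeR). Its vector libraries were spread over a wide range and lay below those of SETD8.

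RPS27 and RPS28, both of the small subunit, rose. RPS27, a zinc finger protein, lies on chromosome 1 from 153990755 to 153992155 and had 770, 696 and 703 CPM in SETD8 replicates 1, 2 and 3. Vector replicates 1, 2 and 3 had 592, 557 and 478 CPM, all lower (log2 ratio 0.42 with SE 0.10, adjusted p = 0.0251 by edgeR). With correction for transcript length RPS27 lost its call (log2 ratio 0.18, adjusted p = 0.150 by edgeR). RPS28, which sits beside the messenger exit channel, lies on chromosome 19 from 8321158 to 8323340. It had 181, 192 and 181 CPM in SETD8 replicates and 163, 141 and 117 CPM in vector replicates (log2 ratio 0.39 with SE 0.11, adjusted p = 0.0448 by edgeR). The groups of RPS28 did not overlap, but summed with its pseudogene rows RPS28 lost its call (log2 ratio 0.22, adjusted p = 0.510 by edgeR).

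RPLP2 was the 1 stalk gene past the threshold. P1 and P2 proteins pair on the base P0 and engage elongation factors. RPLP2, on chromosome 11 from 809647 to 812880, had 706, 686 and 694 CPM in SETD8 replicates 1, 2 and 3, and its SETD8 libraries lay above the 609, 534 and 436 CPM of vector replicates 1, 2 and 3 (log2 ratio 0.40 with SE 0.11, adjusted p = 0.0450 by edgeR). Of its 50-base stretches, 0.14% occur in other genes. With correction for transcript length RPLP2 lost its call (log2 ratio 0.20, adjusted p = 0.102 by edgeR). RPLP1 had 1555, 1462 and 1525 CPM in SETD8 replicates against 1439, 1251 and 971 CPM in vector replicates, without overlap, and did not pass (log2 ratio 0.31 with SE 0.13, adjusted p = 0.138 by edgeR). Its log2 ratio was 0.17 without vector replicate 3, and without vector replicate 1 it was 0.44 and RPLP1 rose (edgeR adjusted p = 0.00788). RPLP0 had 5858, 4885 and 5316 CPM in SETD8 replicates and 6068, 5497 and 4095 CPM in vector replicates, which overlapped (log2 ratio 0.04, adjusted p = 0.899 by edgeR).

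RPS29, a small zinc finger protein of the small subunit, was the 1 gene that fell. It lies on chromosome 14 from 49570984 to 49599164. It had 265, 257 and 259 CPM in SETD8 replicates 1, 2 and 3, against 365, 367 and 304 CPM in vector replicates 1, 2 and 3. The SETD8 libraries lay close together below all vector libraries (log2 ratio -0.41 with SE 0.09, adjusted p = 0.0206 by edgeR). Vector replicate 3, low for most members, was also the lowest vector library for RPS29, and without it the log2 fold change was -0.49 (edgeR adjusted p = 2.30e-04). RPS10 also had a lower mean in SETD8 libraries, at 0.29 CPM against 0.92 CPM in vector libraries, but rests on 2 to 20 counts per library and did not pass (log2 ratio -1.65 with SE 0.56, adjusted p = 0.0851 by edgeR). Summed with its pseudogene rows, RPS10 had a log2 fold change of 0.24.

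**Figure D3:**
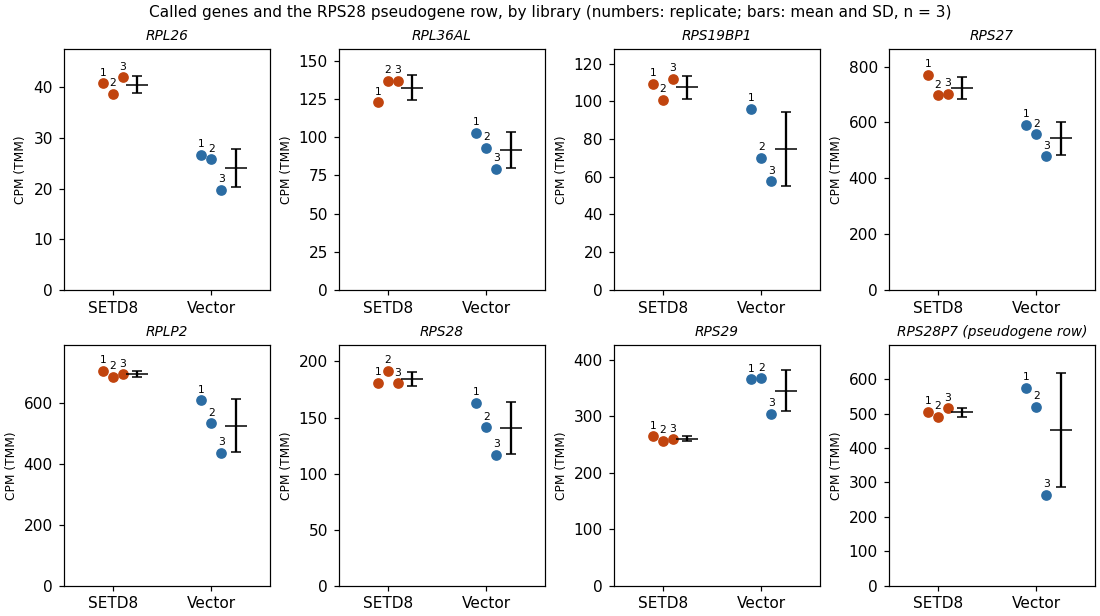
CPM of the 7 genes past the threshold and of the pseudogene row RPS28P7 in each library (SETD8 left, vector right; points are libraries with their replicate number, bars are mean and SD, n = 3). In the 6 genes that rose every SETD8 library lies above every vector library, in RPS29 below, and in RPS28P7 the groups overlap with vector replicate 3 at 264 CPM.

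The other genes that the naming rule selects did not pass. Among the large fold changes, RPL36 of the large subunit had 578, 592 and 561 CPM in SETD8 replicates 1, 2 and 3 and 543, 430 and 306 CPM in vector replicates 1, 2 and 3 (log2 ratio 0.44 with SE 0.16, adjusted p = 0.109 by edgeR). RPS12 of the small subunit averaged 1135 ± 59.0 CPM in SETD8 and 886 ± 189 CPM in vector libraries (log2 ratio 0.36, adjusted p = 0.110 by edgeR). Without vector replicate 3 the log2 ratio was 0.25 for RPL36 and 0.21 for RPS12. Without vector replicate 1 it was 0.64 and 0.51, and both rose (edgeR adjusted p = 5.26e-04 and 0.00316). RPS27A, made as a fusion with ubiquitin, averaged 750 ± 43.9 CPM in SETD8 and 603 ± 78.3 CPM in vector libraries (log2 ratio 0.31, adjusted p = 0.0813 by edgeR). RPS12 and RPS27A rose when scaled by library totals (edgeR adjusted p = 0.0469 and 0.0317), and RPS27A rose without vector replicate 1 (edgeR adjusted p = 0.0103). FAU, made as a fusion with a ubiquitin-like protein, had a log2 fold change of 0.35 (edgeR adjusted p = 0.200). At the low end, log2 fold changes were -0.13 for RPL4, -0.07 for RPL10A and -0.07 for RPL7 (edgeR adjusted p = 0.425, 0.667 and 0.693). RACK1, a scaffold on the head of the small subunit, had -0.21 (edgeR adjusted p = 0.180).

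Several ribosomal proteins named for roles beyond translation or in disease did not pass the test. RPL5 and RPL11, which with the smallest ribosomal RNA bind the ubiquitin ligase MDM2, had 1014 ± 26.4 and 982 ± 30.8 CPM in SETD8 libraries and 993 ± 15.2 and 901 ± 25.2 CPM in vector libraries. Their log2 fold changes were 0.03 and 0.12, and those of RPL23 and RPS7, also MDM2 binders, 0.02 and 0.08 (edgeR adjusted p = 0.861, 0.381, 0.933 and 0.640), a median of 0.05 over the 4. RPS6, the substrate of the kinases downstream of mTORC1, had 1264 ± 18.3 CPM in SETD8 and 1238 ± 58.5 CPM in vector libraries (log2 ratio 0.03, adjusted p = 0.868 by edgeR). RPS14, lost in a deletion form of myelodysplasia, had a log2 fold change of -0.003, and RPS19, the gene most often mutated in Diamond-Blackfan anaemia, had 0.21 (edgeR adjusted p = 0.990 and 0.378). Log2 fold changes of RPS3, RPSA, RPL10 and RPL13A were 0.20, 0.16, 0.21 and 0.07, and all 4 missed the threshold (edgeR adjusted p = 0.317, 0.444, 0.305 and 0.752).

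Paralogs were expressed unevenly. RPL7L1, a nucleolar relative of RPL7, had 394 to 408 CPM in SETD8 and 367 to 405 CPM in vector libraries. RPL22L1, a paralog of RPL22, had 199 ± 9.56 CPM in SETD8 and 172 ± 27.5 CPM in vector libraries, and RPL26L1, a paralog of RPL26, had 47.9 ± 6.34 and 39.3 ± 4.78 CPM in SETD8 and vector libraries (SD, n = 3 each). Log2 fold changes were 0.04, 0.21 and 0.29 (edgeR adjusted p = 0.784, 0.240 and 0.164). With RPL36AL, the 4 tested paralogs had a median of 0.25. The remaining 3 paralogs were the members that the low-count filter removed. RPL3L, known from heart and skeletal muscle, had 22, 5 and 8 counts in SETD8 replicates 1, 2 and 3 and 4, 6 and 4 in vector replicates 1, 2 and 3. RPL39L, known from testis, had 1 count in all, in SETD8 replicate 3. RPL10L, also known from testis, had 0 counts in each library, which allows up to 0.17 CPM for counting error alone.

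By subunit, the large subunit had 1 of 43 genes higher and 0 lower with a median log2 fold change of 0.12, and the small subunit 2 of 31 higher and 1 lower with a median of 0.13. The 3 stalk genes had a median of 0.31 with 1 higher. Among core genes with a coding length over 600 bases, 0 of 22 passed at a median of 0.04. Those of over 300 and up to 600 bases had 2 higher and 0 lower of 46 at a median of 0.15. Those of at most 300 bases had 2 higher and 1 lower of 9 at a median of 0.16. Over all genes tested, 3.08% rose and 4.75% fell. The 47 genes with a pyrimidine start had a median of 0.16, and the 19 tested genes with another annotated start, RPS28 among them, had 0.08. The 16 tested genes without a matched start sequence had 0.12. Median transcript lengths of these 3 groups were 709, 772 and 791.5 bases. Differences between these groups of genes were not tested.

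Transcript length moved with the fold change over all genes. Tested genes outside the family with transcripts up to 1000 bases had a median log2 fold change of 0.21, and those of over 1000 and up to 2000 bases had 0.10. The median was -0.03 up to 4000 bases, -0.12 up to 8000 bases and -0.24 above 8000 bases. The 62 family members with transcripts up to 1000 bases had a median of 0.14, below that of other genes of this length, and the 18 of up to 2000 bases had 0.06. After each library's trend on transcript length was removed, the median of the members was -0.07, with 33 positive and 49 negative values, and 4 rose and 3 fell. RPL26, RPL36AL, RPS19BP1 and RPS28 kept their rise (log2 fold change 0.55, 0.33, 0.36 and 0.28) and RPS29 its fall (-0.62). RPLP2 and RPS27 lost their calls. RPL10A (-0.28, edgeR adjusted p = 0.0297) and RPS10 (-1.87, edgeR adjusted p = 0.0480) then fell. The part of length in the fold changes was not tested otherwise.

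**Figure D4:**
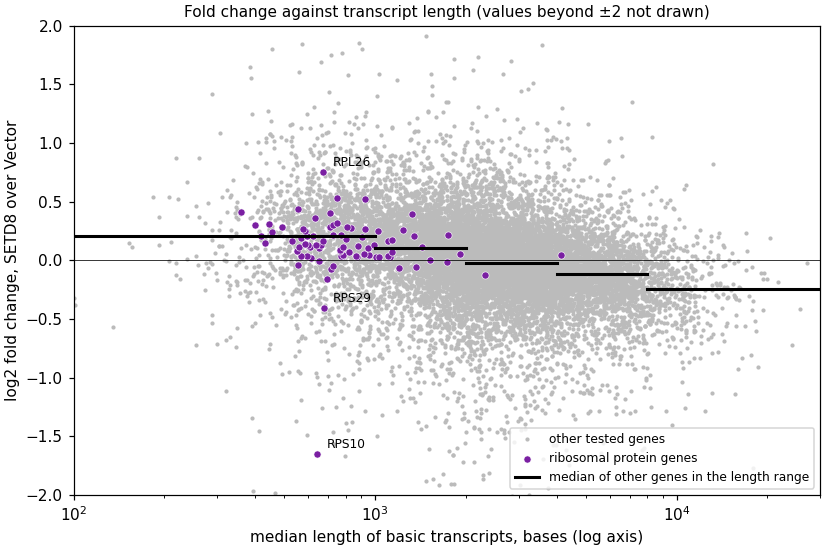
Fitted log2 fold change (SETD8 over vector) of each tested gene against the median length of its basic transcripts on a log axis; purple points are the ribosomal protein genes, grey points all other tested genes, and black lines the median of the other genes in each length range. The black lines step from 0.21 at up to 1000 bases to -0.24 above 8000 bases.

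Vector replicate 3 stood apart from the other libraries in these genes, and over the whole table it was the vector library furthest from the SETD8 libraries. Chi-square per degree of freedom between its counts and those of each SETD8 library was 41.5 to 48.7. For vector replicate 2 this was 26.1 to 26.8 and for vector replicate 1 it was 10.8 to 12.3. Between vector replicates 1 and 2 it was 12.9. Relative to the mean of the vector libraries, the median log2 level of the members was 0.18, 0.09 and 0.15 in SETD8 replicates 1, 2 and 3, and 0.18, 0.06 and -0.23 in vector replicates 1, 2 and 3. Vector replicate 1 therefore stood at the level of the SETD8 libraries, and vector replicate 3 stood below the rest. The genes took 9.99%, 9.34% and 9.51% of the counts in SETD8 replicates 1, 2 and 3 and 9.53%, 9.02% and 7.55% in vector replicates 1, 2 and 3. Vector replicate 3 lay below all 3 SETD8 libraries in 74 of the 82 members, or 90.2%, against 37.7% of all genes tested. The coefficient of variation was smaller in SETD8 than in vector libraries in 76 of the 82 members, and in 9321 of all 14370 genes tested. Without vector replicate 3 the median log2 fold change of the members was 0.03, with 50 positive and 32 negative values, but the same 7 genes kept their calls. Without vector replicate 1 the median was 0.23.

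**Figure D5:**
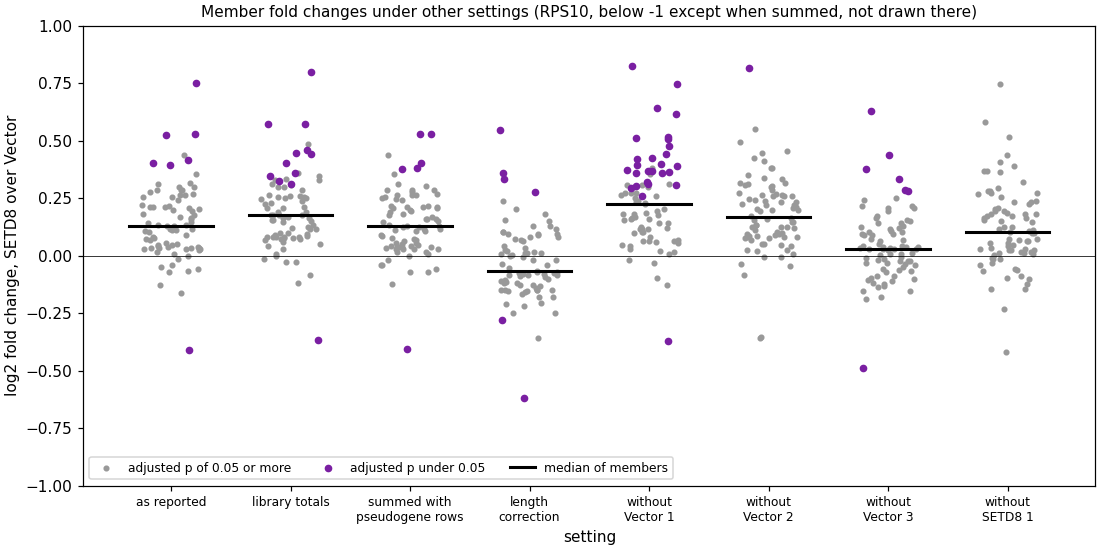
Log2 fold change (SETD8 over vector) of each tested member under the reported setting and 7 others, with genes past the threshold in purple, other genes in grey and the median as a black line. The median is -0.07 with length correction and 0.03 without vector replicate 3, and leaving out vector replicate 1 gives the most purple points of the settings drawn.

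Of 45 ribosome assembly factors, 2 rose and 1 fell at a median log2 fold change of 0.02, where 3.08% of all genes tested rose and 4.75% fell. DIMT1, which dimethylates the small subunit's ribosomal RNA, averaged 45.2 CPM (43.7 to 46.0) in SETD8 libraries and lay at 25.8 to 34.2 CPM in vector libraries (log2 ratio 0.64 with SE 0.12, adjusted p = 0.0100 by edgeR). SBDS, which frees new large subunits for translation, lay at 74.5 to 83.0 CPM in SETD8 and 59.2 to 65.7 CPM in vector libraries (log2 ratio 0.34 with SE 0.09, adjusted p = 0.0380 by edgeR). RRP12, which takes part in export of subunit precursors, averaged 168 ± 4.35 CPM in SETD8 and 214 ± 17.5 CPM in vector libraries (log2 ratio -0.35 with SE 0.09, adjusted p = 0.0289 by edgeR). These 3 calls were lost without vector replicate 2 and without SETD8 replicate 1, 2 or 3 (highest edgeR adjusted p = 0.0754, 0.169 and 0.149 among DIMT1, SBDS and RRP12).

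Of 15 genes of mTORC1 and TOP translation control, RPTOR, the scaffold of mTORC1, fell, at 136 ± 2.56 CPM in SETD8 and 170 ± 9.36 CPM in vector libraries (log2 ratio -0.33 with SE 0.08, adjusted p = 0.0303 by edgeR), and 0 rose. It too lost its call without vector replicate 2 or any SETD8 replicate (highest edgeR adjusted p = 0.146). The list median was 0.08, where 3.08% of all genes tested rose and 4.75% fell. In the remaining lists of the cytosolic system 0 genes passed in either direction. Medians were -0.02 for 16 translation factors with TOP messengers, -0.06 for 14 genes of the RNA polymerase I machinery, 0.19 for 9 chaperones of ribosomal proteins and 0.04 for 7 factors tied to ribosomal protein promoters.

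The mitochondrial ribosomal protein genes, the nearest family in function, had a median log2 fold change of 0.24. Of 77 genes, 4 rose and 0 fell, against 3.08% and 4.75% of all genes tested. The 4 were MRPL33 (0.49), MRPL36 (0.41), MRPL42 (0.36) and MRPL55 (0.51), with edgeR adjusted p = 0.0226, 0.0438, 0.0251 and 0.0457, and all 4 lost their calls with length correction (highest edgeR adjusted p = 0.234). Leaving out 1 library at a time was followed for 11 pathway genes, these 4 among them, and 33 of 66 values lost a call. The difference between the families was not tested.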

How the data were processed

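Per the labels' protocols, RNA came from TRIzol extraction and went through poly(A) selection into Illumina TruSeq Stranded mRNA libraries. The deposited table holds raw counts per Ensembl gene for 6 libraries. Among aligners and counters, the submitters' processing notes list featureCounts, HTSeq, STAR and HISAT2, with the builds hg38 and GRCh38, and give neither roles nor versions. The counting's annotation and strand setting are not stated there. Columns named NC were taken as the vector group, the 1 group other than SETD8. All 58735 IDs matched GENCODE 29.

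Genes were filtered with filterByExpr, scaled by TMM and compared in R 4.3.3 with edgeR 4.0.16 (quasi-likelihood fit, robust option), without covariates, two-sided, with Benjamini-Hochberg adjustment over 14370 genes. Members, lists and alternatives were chosen with earlier results of these data known. Members named were those past the threshold, the 8 highest and 6 lowest fold changes, the 6 highest and 6 lowest levels per kb, and fixed sets (stalk, paralogs, MDM2 binders, RPS28 and 9 others); pathway genes named were those past the threshold, at most 4 a list, and FAU and RACK1. A few named items are not reported here; they stay in the counts and medians. The SE is the log2 fold change divided by the square root of F. Intervals of counts cover counting error only. Shared sequence was measured as exact 50-base matches between GENCODE transcripts, and pseudogenes were assigned to genes by name. The test was checked on simulated counts, drawn independently for each gene and library. These had fewer changed genes than were called here, no trend on length and no shift shared by the genes of a library. In this simulation the test called 53.9% of 1.5-fold, 81.9% of 2-fold and 96.6% of 4-fold changes, and 8.80% of its calls were unchanged genes. The error rate in the real libraries was not measured by it. Changes below 1.5-fold were not simulated. Alternatives were other scalings, filters, DESeq2 1.42.0, limma-voom (limma 3.58.1), a replicate block, length and GC corrections (lowess, span 0.3), pseudogene sums and leaving out each library.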

Additional observations from a re-analysis of the deposited data

How the results depend on the processing

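The 6 rises and 1 fall among the members depended on single libraries, as did the calls over all genes tested. Leaving out 1 library gave 0 to 26 rises and 0 to 1 falls, and a median log2 fold change of 0.031 to 0.226. Over all genes tested, 0.00679% to 12.0% then rose and 0.0679% to 11.8% fell. The number of rises was 11 with library totals, 14 with no low-count filter and 12 with DESeq2. Under these settings 5.51%, 3.46% and 5.14% of all genes tested rose. Falls numbered 3 with length correction, where the median was -0.067, while the other alternatives in processing kept 1 fall. Library totals shifted the median of all genes to 0.043. With length correction RPLP2 and RPS27 lost their calls, and with pseudogene sums RPS28 did. The other 10 alternatives in processing kept all 7 calls. For each of those 3 losses the cause was not tested. Without vector replicate 1 or 3 all 7 calls were kept, and without vector replicate 2 or SETD8 replicate 2 or 3 only that of RPL26. Without SETD8 replicate 1 all 7 were lost (RPL26 edgeR adjusted p = 0.0508). Both of the following were chosen after seeing the data. Summing each overlapping gene with its partner left 6 rises and 1 fall. The partners held 0 to 3 counts in each library, so this sum could barely change a value. It is 1 of the 10 alternatives in processing that kept all 7 calls. Counting the 77 core ribosomal proteins alone gave 4 rises and 1 fall, or 5.19% and 1.30%, against 3.08% and 4.75% of all genes tested. Whether the shared replicate numbers pair the samples cannot be settled with 3 libraries a group. Deviations of same-numbered libraries correlated at 0.025, 0.008 and -0.064, and those of differently numbered libraries at -0.095 to 0.092. A replicate block gave 7 rises and 1 fall among the members. Over all genes tested it gave 532 and 645, against 443 and 682 without it. Of 37 named members tested, other processing gave 426 of 442 values on the same side of the threshold, 3 that lost a call and 13 that gained one.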
